A study of Mus musculus with 6 samples.

Results

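The 79 genes described here encode potassium channel subunits of cultured mouse hippocampal neurons. They are the gene symbols of the deposited count table made of Kcn, one or more lower-case letters and a number, with a summed count of at least 20 over the 6 libraries, out of 37411 gene rows in all. The naming pattern matched 92 symbols, and 13 were left out for low counts. The members nearest the minimum, Kcnmb1 and Kcnq1, held 28 counts each, and the nearest gene left out, Kcna7, held 18. The hippocampi came from CD-1 IGS pups on postnatal day 0, and RNA was taken on day 16 in vitro (DIV 16). The 3 control cultures (libraries 1, 2 and 3) received DMSO, the solvent, and the 3 treated cultures (libraries 4, 5 and 6) received 50 µM forskolin, each for 30 min. Forskolin activates adenylyl cyclase and raises intracellular cyclic AMP (cAMP), so the comparison asks which transcripts differ shortly after cAMP rises. The labels do not say whether the libraries of a group came from separate preparations of pups, so the p-values measure only the spread between these cultures.

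Potassium channels let potassium leave or enter the cell down its gradient and so set the resting potential of a neuron, repolarise its action potentials and limit its firing rate. In hippocampal pyramidal cells Kv4 channels carry the dendritic A-type current, Kv2 channels the somatic delayed rectifier, Kv7 channels the M-current, and calcium-activated SK channels part of the afterhyperpolarisation; several of these currents are known to be modulated by protein kinase A, the main effector of cAMP, at the level of the channel protein. The transcripts were grouped by subfamily into 8 classes, namely voltage-gated Kv subunits, modifier Kv subunits that do not conduct alone, the EAG, ERG and ELK channels, Kv7, calcium- or sodium-activated channels, inward rectifiers, K2P leak channels with a pair of pore domains, and auxiliary subunits.

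Total counts ranged from 28342764 to 47548379 per library. Levels are given as CPM, a gene's count relative to the TMM-scaled total of its library. Each log2 fold change compares forskolin with DMSO, so that a negative value is a lower level with forskolin, and comes from edgeR's quasi-likelihood test over all 16233 tested genes. Fos, a cAMP-induced early gene, lay at 101 to 186 CPM with DMSO and at 831, 902 and 448 CPM in libraries 4, 5 and 6. Nr4a1, likewise an early gene induced by cAMP, lay at 16.6 to 37.6 CPM with DMSO and at 137, 138 and 61.6 CPM in those libraries, so that library 6 was above the DMSO range and below libraries 4 and 5 in both genes. Libraries 4 and 5 also stood apart from library 6 in cell type markers. The summed level of 14 neuron markers was 4877 to 6167 CPM with DMSO, 3620 and 3862 CPM in libraries 4 and 5, and 5915 CPM in library 6. The sum hides differences between markers. In library 6, 6 of the 14 lay below the DMSO range and 5 above it, 6 (42.9%, against 16.2% of all tested genes) were below every DMSO library in all 3 forskolin libraries, and edgeR called 1 lower. The summed level of 12 microglia markers was 7.27 to 13.8 CPM with DMSO, 203 and 373 CPM in libraries 4 and 5, and 9.32 CPM in library 6. For 12 astrocyte markers it was 8832 to 9373 CPM with DMSO and 8652 to 9578 CPM with forskolin, so the cultures labelled as neurons also held astrocyte RNA. For 12 markers of the oligodendrocyte lineage the sum was 836 to 936 CPM with DMSO, 1139 and 1624 CPM in libraries 4 and 5, and 652 CPM in library 6, but single markers went both ways, with 7 of 12 above and 5 below the DMSO range in library 4 and 7 above and 4 below in library 5. For 12 vascular and meningeal markers the sums were 283, 150 and 119 CPM with DMSO and 321, 146 and 108 CPM with forskolin, highest in libraries 1 and 4. No marker of these lists was at 0 in every library. In bulk RNA, fewer cells of a type and less RNA per cell cannot be told apart.

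The promoters of the potassium channel genes that fell with forskolin are shown first. A cAMP response element (CRE) in a promoter is the textbook route by which cAMP raises transcription, and its part in a fall was not tested. RefSeq promoter windows (GRCm38.p6) matched 56 of the 79 genes, and the 250 bases before each annotated start were read. The full CRE, TGACGTCA, was in none of the 80 windows of these genes, against 1.55% of all 32851 windows. The short form, TGACG or its reverse complement CGTCA, both contained in the full form, was in 12 of the 80 (15%), against 17.8% of all windows. It was in 5 of the 12 windows (41.7%) of the genes whose forskolin libraries all lay below the DMSO libraries, a group of windows chosen by these data and too small for a share to be precise. Windows existed for 3 of the 5 genes called lower. They are printed 5′ to 3′ on the strand of the gene, with a short-form CRE in capitals, and lie at chr15:79505242-79505491 (Kcnj4, minus strand), chr17:87797995-87798244 (Kcnk12, minus strand) and chr5:24329592-24329841 (Kcnh2, minus strand, at a start inside the annotated gene).
Kcnj4: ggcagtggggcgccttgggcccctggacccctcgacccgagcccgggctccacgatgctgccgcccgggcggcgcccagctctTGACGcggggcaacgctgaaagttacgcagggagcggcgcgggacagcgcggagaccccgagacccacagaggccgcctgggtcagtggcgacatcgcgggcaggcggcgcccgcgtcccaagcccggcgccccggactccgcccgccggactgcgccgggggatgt
Kcnk12: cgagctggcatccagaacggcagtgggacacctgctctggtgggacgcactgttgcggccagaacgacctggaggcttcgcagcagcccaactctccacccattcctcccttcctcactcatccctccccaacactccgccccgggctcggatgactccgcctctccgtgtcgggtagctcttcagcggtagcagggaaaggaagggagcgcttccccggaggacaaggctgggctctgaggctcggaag
Kcnh2: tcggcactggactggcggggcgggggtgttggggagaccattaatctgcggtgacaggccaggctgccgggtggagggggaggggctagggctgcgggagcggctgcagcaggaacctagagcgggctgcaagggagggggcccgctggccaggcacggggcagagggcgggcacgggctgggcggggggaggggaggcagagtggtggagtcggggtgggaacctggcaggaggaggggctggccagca
The Kcnj4 window held 1 short-form CRE, and the Kcnk12 and Kcnh2 windows held none. All 3 were rich in G and C, at 77.2, 64.8 and 73.6%, against a median of 52.4% over all windows, 59.6% over the 80 windows of the potassium channel genes and 62.4% over the 12 windows of those below every DMSO library. A match is a description of the letters and not a site.

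In the DMSO cultures the potassium channel transcripts spanned a wide range of levels per length. The highest, in CPM per kb of the longest annotated transcript, was Kcnab2, the Kvβ2 auxiliary subunit of Kv1 channels, at 67.1 ± 6.63 (SD, n = 3). It was followed by the K2P channel Kcnk1 (TWIK-1) at 39.6 ± 1.85, the strong inward rectifier Kcnj4 (Kir2.3) at 34.8 ± 1.20 and the Kv4-binding protein Kcnip2 (KChIP2) at 34.2 ± 2.75 CPM per kb (SD, n = 3 each). The libraries of Kcnab2 all lay above those of Kcnk1, whereas Kcnj4 and Kcnip2 did not differ beyond their spread. The M-current subunit Kcnq5 had 24.0 ± 3.41 CPM per kb, and Kcnj10 (Kir4.1), the main astrocytic inward rectifier, had 27.4 ± 5.50 CPM per kb (SD, n = 3 each). The highest member of the voltage-gated Kv class was Kcnd3 (Kv4.3) at 16.2 ± 1.67 CPM per kb, close to Kcnc2 (Kv3.2) at 15.9 ± 4.31 and Kcna1 (Kv1.1) at 15.3 ± 2.41 (SD, n = 3 each). Among the members at low levels, Kcnk13 (THIK-1), a channel known from microglia, had 0.318 ± 0.0593 CPM per kb and Kcnn4, the intermediate-conductance calcium-activated channel, had 0.224 ± 0.0548 CPM per kb (SD, n = 3 each). The order rests on the length of 1 annotated transcript per gene, and genes expressed as shorter transcripts would rank higher.

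**Figure D1:**
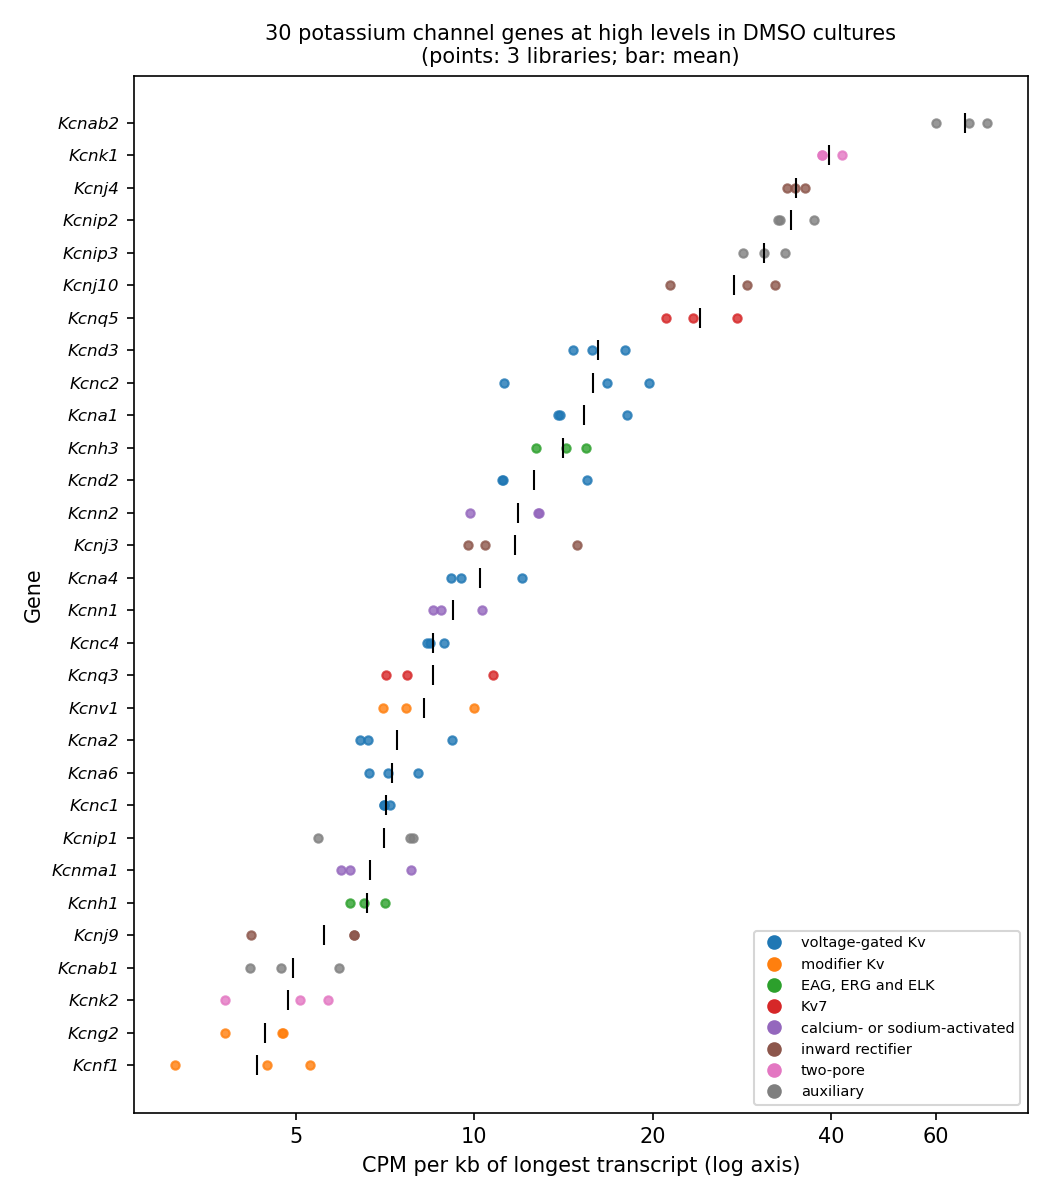
Level of 30 potassium channel genes with high levels in DMSO cultures, as CPM per kb of the longest annotated transcript on a log axis, with 3 libraries as points, their mean as a bar and the class as colour. Kcnab2 stands above all others at 67.1 CPM per kb, followed by Kcnk1 at 39.6 and Kcnj4 at 34.8.

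With forskolin, 5 of the 74 tested potassium channel genes fell and 0 rose (Benjamini-Hochberg adjusted p under 0.05). They were the K2P subunit Kcnk12, the modifier subunit Kcng2, the ELK channel Kcnh3, the ERG channel Kcnh2 and the inward rectifier Kcnj4. The 5 are 6.76% of the tested members; of all tested genes 1.34% were called lower and 0.172% higher, 1.51% in all. At an unadjusted p under 0.05 there were 15 members, all of them lower, against 11.7% of all tested genes lower and 22.3% in either direction. DESeq2 called 10 lower and 0 higher, with a background of 6.03% lower and 4.9% higher (10.9% in all). The median log2 fold change of the 74 genes was -0.26, against 0.02 over all tested genes, and 51 of them (68.9%) had a negative value, against 48.2% of all tested genes. In 17 of the 74 (23.0%) every forskolin library lay below every DMSO library, against 16.2% of all tested genes. In 0 did every forskolin library lie above, against 10.3% of all tested genes. The other 5 of the 79 genes, Kcne2, Kcnj14, Kcnk6, Kcnmb1 and Kcnq1, did not reach the minimum count in enough libraries to be tested (28 to 105 counts in sum).

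**Figure D2:**
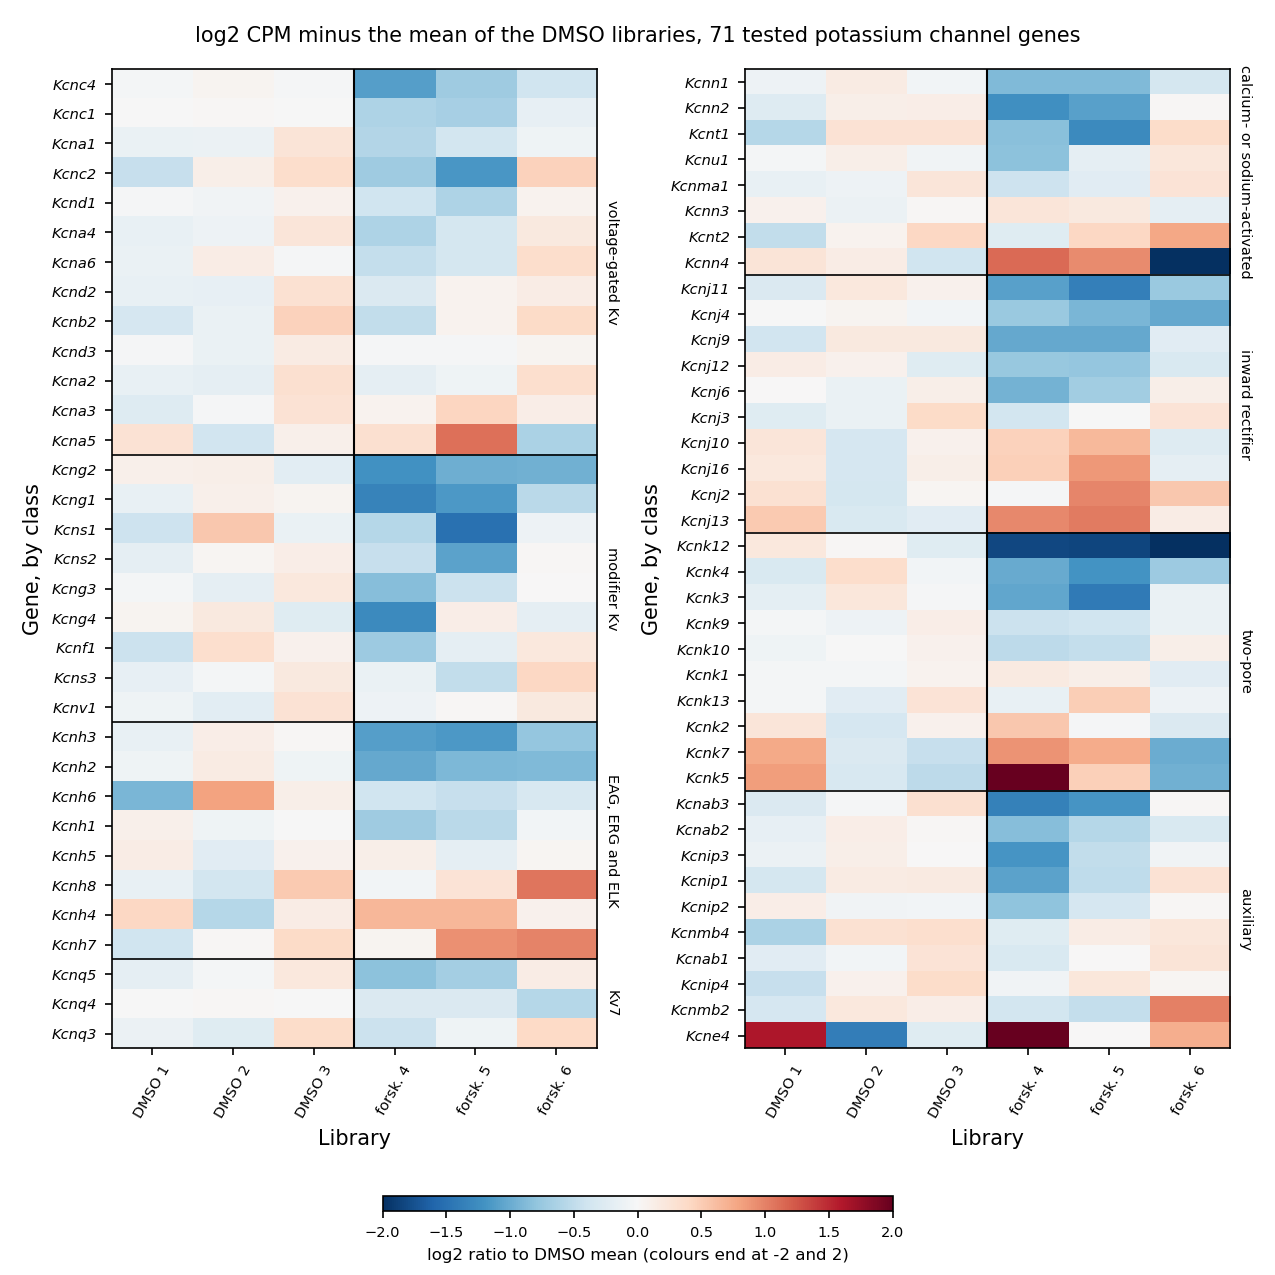
Log2 CPM minus the mean of the DMSO libraries for 71 of the 74 tested potassium channel genes (rows, ordered by class and fitted change) in the 6 libraries (columns); blue is lower and red higher, and colours end at -2 and 2. The median over all 74 genes is -0.47 and -0.35 in forskolin libraries 4 and 5 and 0.01 in library 6.

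Kcnk12 (THIK-2), a K2P subunit that gives little current by itself, changed most. It had 8.09, 7.12 and 5.92 CPM with DMSO (libraries 1 to 3) and 1.93, 1.91 and 0.896 CPM with forskolin (libraries 4 to 6). The groups did not overlap, and library 6 was the lowest. The fitted level was 4.44-fold lower (log2 fold change -2.15 ± 0.34 (SE), edgeR adjusted p = 0.0417), from 30 to 259 counts per library. The gene lies at chr17:87745801-87797994 (GRCm38, minus strand) and overlaps no other annotated gene.

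Kcnj4, whose Kir2.3 channel helps to hold the resting potential of forebrain neurons, had 74.7, 77.6 and 72.5 CPM with DMSO and 44.6, 39.5 and 36.7 CPM with forskolin. All forskolin libraries lay well under the DMSO range, and library 6 was again the lowest. The log2 fold change was -0.90 ± 0.11 (SE; edgeR adjusted p = 0.0297), the smallest adjusted p among the potassium channel genes. Kcnj4 lies at chr15:79483714-79505241 (GRCm38, minus strand) with no overlapping gene, and its promoter is the one printed above with a short-form CRE. That form was in 17.8% of all windows.

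Kcnh3 (Kv12.2, an ELK channel of forebrain neurons that restrains their excitability) had 46.9, 57.0 and 52.8 CPM with DMSO and 24.3, 23.5 and 30.5 CPM with forskolin, a 2.0-fold lower fitted level (log2 fold change -1.0 ± 0.14 (SE), edgeR adjusted p = 0.0371). Kcnh2 (Kv11.1 or ERG1, the rapid delayed rectifier of heart, also present in neurons) had 15.2, 18.1 and 15.2 CPM and then 7.88, 8.58 and 8.75 CPM. Its log2 fold change was -0.94 ± 0.15 (SE; edgeR adjusted p = 0.0410). In both genes the groups were apart and the 3 forskolin libraries lay close together. Kcnh3 (chr15:99224861-99242817, plus strand) overlaps Mcrs1 on the other strand and Kcnh2 (chr5:24319589-24351604, minus strand) overlaps Gm15589, so that without a stated strand setting their reads cannot be told apart from those of the partners.

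Kcng2 (Kv6.2), which does not conduct alone and modifies Kv2 channels, had 13.3, 13.4 and 10.7 CPM with DMSO and 5.31, 6.29 and 6.36 CPM with forskolin (log2 fold change -1.06 ± 0.18 (SE), edgeR adjusted p = 0.0445). Its groups did not overlap. The gene is on chromosome 18 and overlaps the annotated genes Gm37015, D330025C20Rik and Gm26676.

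**Figure D3:**
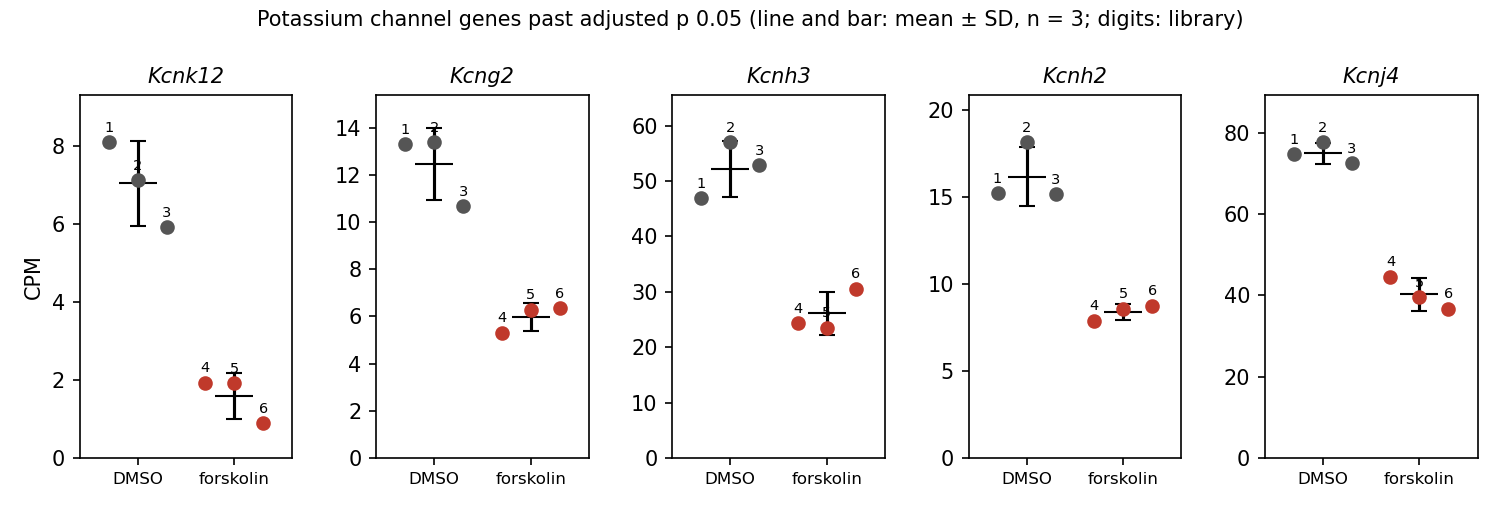
CPM in each library (points, numbered by library) of the 5 potassium channel genes past an adjusted p of 0.05, with the mean and SD of 3 libraries per group; each axis starts at 0. In every panel the 3 forskolin libraries lie below the 3 DMSO libraries, as in Kcnj4 with 36.7 to 44.6 against 72.5 to 77.6 CPM.

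Leaving out libraries changed these calls. Without library 6 the test called 34 of 75 potassium channel genes, 32 lower (42.7%, background 17.1%) and 2 higher (2.67%, background 16.5%), 34 in all against 33.6% of tested genes, and all 5 genes above were among them. Without library 1, 2, 3, 4 or 5 it called 0 members and 0 of all tested genes. At an unadjusted p under 0.05 there were then 9 to 14 of 74 or 75 members. The background in these fits was 1945 to 3216 of 16473 to 16933 tested genes. With the trend of each library on transcript GC content removed, 0 of the 5 genes were called, and the log2 fold change of Kcnk12 moved from -2.15 to -1.07 and that of Kcnh2 from -0.94 to -0.40. Other settings gave 5 called members with limma-voom (background 1.34%), a robust prior (1.43%), library size alone (2.01%) and a minimum mean CPM of 1 (1.69%), and 3 with RLE factors (0.844%) and without a count filter (0.795%). Limma-voom with library quality weights called 37 of 74, against 41.9% of all tested genes. Of the 37, 34 were lower and 3 higher (Kcnj10, Kcnj13 and Kcnj16). The share of all tested genes in each direction was not taken for this setting, so the split has no background.

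Among the 15 voltage-gated Kv genes, which form the delayed rectifier and A-type channels, 0 were called by edgeR (3 at an unadjusted p under 0.05, all lower; DESeq2 called 1 lower), and the median log2 fold change was -0.23. Kcnd2 (Kv4.2), the main dendritic A-type subunit, had 57.7, 57.4 and 79.6 CPM with DMSO and 52.6, 67.6 and 71.0 CPM with forskolin (log2 fold change -0.03 ± 0.18 (SE), edgeR adjusted p = 0.942). Its groups overlapped. Kcnd3 had 113, 105 and 129 CPM and then 114, 114 and 120 CPM (edgeR adjusted p = 0.996).

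Of the Kv1 genes, which form axonal channels, Kcna1 had 61.6 ± 9.70 and 48.5 ± 8.28 CPM (SD, n = 3; edgeR adjusted p = 0.279) and Kcna2 had 85.7 ± 17.8 and 87.0 ± 17.3 CPM (SD, n = 3; edgeR adjusted p = 0.957). In Kcna2 the highest library of each group, 3 and 6, stood at 106 and 107 CPM. Kcna3, a Kv1 subunit also known from immune cells, had 4.06, 4.79 and 5.95 CPM with DMSO and 5.12, 6.58 and 5.35 CPM with forskolin, and these overlapped. The Kv3 genes, which serve fast spiking, differed among themselves. Kcnc1 and Kcnc4, named after their values were seen, each had every forskolin library below every DMSO library, with log2 fold changes of -0.46 and -0.71 (edgeR adjusted p = 0.165 and 0.117). Kcnc2, known from interneurons, had 56.6, 84.3 and 99.4 CPM and then 47.4, 34.7 and 107 CPM, so that library 6 was the highest of all 6 and libraries 4 and 5 the lowest.

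The modifier class, which joins Kv2 channels and alters their gating, had a median log2 fold change of -0.39 over 9 genes, with Kcng2 called lower, 0 called higher and 8 of 9 negative. Kcng1 (Kv6.1) had 8.46, 10.1 and 9.76 CPM with DMSO and 3.70, 4.23 and 6.48 CPM with forskolin. Its groups were apart, but with a log2 fold change of -0.98 ± 0.25 (SE) it missed the threshold (edgeR adjusted p = 0.114). It passed without library 6 (edgeR adjusted p = 0.00498), and DESeq2 called it lower with all 6 libraries. Kcnv1 (Kv8.1), the highest of the class per length, had 36.1 ± 6.85 and 36.8 ± 3.87 CPM (SD, n = 3). Kcnf1 (Kv5.1) and Kcns3 (Kv9.3) overlapped between the groups, with edgeR adjusted p of 0.677 and 0.954.

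The other 6 genes of the EAG, ERG and ELK class were not called. Kcnh7 (ERG3) had 6.90, 9.32 and 11.9 CPM with DMSO and 9.49, 17.2 and 18.2 CPM with forskolin. Library 4 lay within the DMSO range and libraries 5 and 6 above it (log2 fold change 0.67 ± 0.31 (SE), edgeR adjusted p = 0.253). The fitted changes of ERG1 and ERG3 transcripts were thus of opposite sign in the main test, but the sign for ERG3 was not stable. Its log2 fold change was 0.20 with the GC trend removed and turned negative with library 6 left out as well.

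Of 4 tested Kv7 genes, the subunits of the M-channel, 0 were called by edgeR (0 at an unadjusted p under 0.05, 0 by DESeq2), and the median log2 fold change was -0.39. Kcnq5, named after its values were seen, had 147, 163 and 194 CPM and then 93.9, 104 and 184 CPM. Libraries 4 and 5 lay under the DMSO range and library 6 within it (edgeR adjusted p = 0.406; without library 6, 0.00969). Kcnq3, also a subunit of the M-channel, had 91.0, 83.9 and 127 CPM and then 73.3, 93.6 and 131 CPM (log2 fold change -0.02 ± 0.25 (SE), edgeR adjusted p = 0.968). The neuron marker sums divided libraries 4 and 5 from library 6 in the same way as Kcnq5, and their part in these values was not tested.

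Among the 8 calcium- or sodium-activated channel genes, 0 were called by edgeR (1 at an unadjusted p under 0.05, lower; DESeq2 called 1 lower). Kcnn2 (SK2), a subunit of the afterhyperpolarisation channels, had 36.2, 47.1 and 47.3 CPM with DMSO and 18.5, 20.2 and 44.1 CPM with forskolin. Libraries 4 and 5 lay under the DMSO range and library 6 within it (edgeR adjusted p = 0.299). With library 6 left out its log2 fold change moved from -0.66 to -1.19 (edgeR adjusted p = 0.00420). Kcnn1 (SK1), named after its values were seen, had 34.5, 41.6 and 35.6 CPM and then 20.1, 20.01 and 29.2 CPM, without overlap (edgeR adjusted p = 0.120). Kcnma1, the pore of the large-conductance BK channel, had 80.5 ± 12.4 and 74.99 ± 19.4 CPM (SD, n = 3; edgeR adjusted p = 0.791). The sodium-activated Kcnt2 and the BK relative Kcnu1 had adjusted p of 0.574 and 0.724.

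Kcnn4, a channel also known from microglia, had 31, 27 and 21 counts with DMSO and 86, 54 and 4 counts with forskolin. It was highest in libraries 4 and 5, the libraries with high microglia markers, and lowest of all in library 6, where the sum of those markers was within the DMSO range (of 11 tested, 3 were below it and 2 above). Kcnk6 (TWIK-2), named after its values were seen, had 6, 7 and 1 counts and then 42, 48 and 1 counts. These were the 2 genes called higher without library 6, with an edgeR log2 fold change of 1.05 for Kcnn4 (adjusted p = 0.0387). Kcnk6 passed the count filter in that fit only through libraries 4 and 5, where it is high. Its call was therefore decided in part by the filter and is no support for a rise. Kcnk13, in contrast, had 0.937, 0.820 and 1.18 CPM with DMSO and 0.871, 1.38 and 0.896 CPM with forskolin, with overlapping groups (log2 fold change 0.10 ± 0.31 (SE), edgeR adjusted p = 0.877). The part of the microglia markers in these values was not tested.

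Of 10 tested inward rectifier genes, edgeR called Kcnj4 lower and 0 higher (4 at an unadjusted p under 0.05, all lower). DESeq2 called 2 lower, Kcnj4 and Kcnj11, and 0 higher, where it called 6.03% of all tested genes lower. Kcnj11 (Kir6.2), the pore of the ATP-sensitive channel, had 3.78, 5.38 and 4.91 CPM with DMSO and 2.17, 1.76 and 2.75 CPM with forskolin. The groups were apart, and the log2 fold change of -1.07 ± 0.26 (SE) missed the threshold (edgeR adjusted p = 0.105). Of the G protein-gated GIRK subunits, Kcnj3 (GIRK1) had 61.0 ± 14.6 and 59.7 ± 13.0 CPM (SD, n = 3; edgeR adjusted p = 0.941). Kcnj6 (GIRK2) had 11.9, 10.8 and 12.9 CPM and then 6.14, 7.26 and 12.8 CPM (edgeR adjusted p = 0.395), with library 6 inside the DMSO range. Kcnj9 (GIRK3), named after its values were seen, had 16.2, 24.2 and 24.2 CPM and then 10.3, 10.4 and 17.98 CPM (edgeR adjusted p = 0.192).

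The glial inward rectifiers went the other way in libraries 4 and 5. Kcnj10 had 174, 116 and 156 CPM with DMSO and 202, 228 and 122 CPM with forskolin, and Kcnj16 (Kir5.1), which joins Kcnj10 in astrocytes, had 14.1, 9.55 and 13.1 CPM and then 16.9, 22.0 and 10.6 CPM. In both genes libraries 4 and 5 lay above every DMSO library and library 6 within their range (edgeR adjusted p = 0.499 and 0.402). Limma-voom with library quality weights called both of them higher (limma adjusted p = 0.0328 and 0.0279). That setting called 41.9% of all tested genes in either direction. Leaving out library 6 in edgeR called neither Kcnj10 (edgeR adjusted p = 0.0628) nor Kcnj16 (edgeR adjusted p = 0.0512). Once corrected for GC content, the log2 fold change was 0.23 for Kcnj10 (edgeR adjusted p = 0.669) and 0.088 for Kcnj16 (edgeR adjusted p = 0.875). The summed astrocyte markers, at 8715 and 9578 CPM in libraries 4 and 5, lay just below and just above the DMSO range, but single markers went both ways, with 7 of 12 above and 4 below that range in library 4, 6 above and 4 below in library 5, and 2 above and 6 below in library 6. The summed markers of the oligodendrocyte lineage, whose single markers went both ways, and of microglia were, like both genes, above every DMSO library in libraries 4 and 5 and not in library 6, and their part in these values was not tested. Kcnj2 (Kir2.1) had 16.1 ± 3.59 and 23.3 ± 7.73 CPM and Kcnj13 (Kir7.1) had 0.859 ± 0.312 and 1.45 ± 0.456 CPM (SD, n = 3), with edgeR adjusted p of 0.306 and 0.294.

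Of 10 tested K2P leak channel genes, edgeR called Kcnk12 lower and 0 higher. DESeq2 called 2 lower, Kcnk12 and Kcnk4, and 0 higher, against 6.03% of all tested genes lower. Kcnk4 (TRAAK), a mechanosensitive channel, had 1.999, 3.22 and 2.41 CPM with DMSO and 1.21, 1.06 and 1.49 CPM with forskolin, without overlap (log2 fold change -1.02 ± 0.29 (SE), edgeR adjusted p = 0.132). Kcnk1 had 88.5 ± 4.13 and 90.8 ± 13.1 CPM (SD, n = 3; edgeR adjusted p = 0.886). Kcnk5 (TASK-2) rested on 1 library, with 1.59, 0.689 and 0.589 CPM with DMSO and 4.14, 1.23 and 0.418 CPM with forskolin. Library 4 was the highest and library 6 the lowest of all 6. Libraries 4 and 1, the highest for this gene, were also the highest in the summed vascular and meningeal markers, whose part was not tested.

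Of 10 tested auxiliary subunit genes 0 were called by edgeR (1 at an unadjusted p under 0.05, lower; DESeq2 called 0). Kcnab2 had 235, 287 and 268 CPM with DMSO and 146, 177 and 212 CPM with forskolin. The groups did not overlap (log2 fold change -0.56 ± 0.17 (SE), edgeR adjusted p = 0.144). Kcnip2 had 107 ± 8.56 and 84.2 ± 23.3 CPM (SD, n = 3; edgeR adjusted p = 0.362). Kcnmb2, a BK β subunit, had 3.04 ± 0.589 and 3.53 ± 2.25 CPM (SD, n = 3), with library 6 alone above the DMSO range at 6.12 CPM. Kcne4, which modulates Kv channels, held 21, 1 and 5 counts and then 75, 6 and 11 counts, too uneven within each group for a difference to be seen. Libraries 4 and 1 were the highest here too.

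The forskolin libraries were divided in most classes. In libraries 4 and 5, 48 and 42 of the 74 tested genes lay below the range of the DMSO libraries, 64.9 and 56.8% against 38.1 and 39.3% of all tested genes. In library 6 it was 23 genes, 31.1% against 35.3% of all tested genes, and 36 genes lay within the DMSO range (48.6%, against 35.2% of all tested genes). Library 6 was the highest of the 3 forskolin libraries in 53 of the 74 genes (71.6%), against 39.5% of all tested genes. The K2P class did not show this division, with library 6 the highest in 4 of its 10 tested genes and median log2 ratios of -0.28, -0.21 and -0.25 in libraries 4, 5 and 6, and among the inward rectifiers library 6 was the highest in 5 of 10. The summed level of the 79 genes was 2506, 2612 and 2904 CPM with DMSO, 1901 and 2149 CPM in libraries 4 and 5, and 2648 CPM in library 6. Over 14 neuron markers the median log2 ratio to the mean of the DMSO libraries was -0.75 and -0.78 in libraries 4 and 5 and 0.16 in library 6, beside -0.47, -0.35 and 0.01 over the potassium channel genes; its part in their levels was not tested.

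The fold changes of the potassium channel genes followed the GC content of their transcripts. Across the 74 tested genes the Spearman correlation between log2 fold change and the GC content of the longest transcript was -0.59, and across 15769 tested genes with a GC value it was -0.51; these describe genes of the same 6 libraries, which are not independent replicates. Ordered by GC content, the 25 lowest genes (36.6 to 47.7% GC) had a median log2 fold change of -0.01, the next 25 (47.9 to 55.2%) of -0.32 and the 24 highest (55.2 to 69.4%) of -0.65. The medians of all tested genes in the same GC ranges were 0.23, -0.07 and -0.34. All 5 called genes, with GC contents of 59.3 to 69.4%, and 14 of the 17 genes whose forskolin libraries all lay below the DMSO libraries were among the 24. Among all tested genes of that GC range 5.92% were called lower and 44.9% lay below in every library, against 5 and 14 of these 24.

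When the trend of each library on GC content was taken out, 0 potassium channel genes were called (edgeR; 5 at an unadjusted p under 0.05), as were 0 of all tested genes (1789 at an unadjusted p under 0.05). The log2 fold change was then -1.07 for Kcnk12 (edgeR adjusted p = 0.179), -0.51 for Kcnj4, -0.49 for Kcng2, -0.45 for Kcnh3 and -0.40 for Kcnh2. The median over the 74 genes stayed at -0.26, against -0.07 over all tested genes. With library 6 left out as well, 45 of 75 genes were called lower (60%, background 29.3%) and 2 higher (2.67%, background 12.4%), 47 in all against 41.7% of all tested genes.

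**Figure D4:**
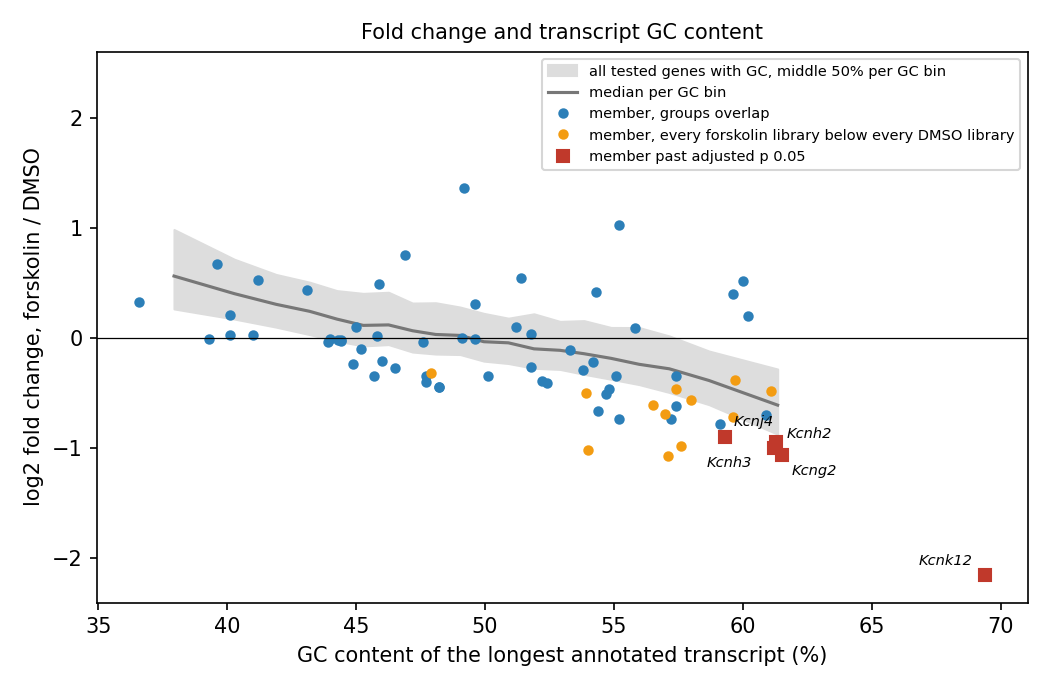
Log2 fold change of each tested potassium channel gene against the GC content of its longest transcript (points and squares), over the median (line) and middle 50% (band) of all tested genes in 20 GC bins of equal size. The 5 called genes lie at 59.3 to 69.4% GC, with Kcnk12 at the far right.

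Genes outside the Kcn names that bind, anchor or regulate potassium channels were read from a list of 27 partners. Of 25 tested, 0 were called by edgeR (5 at an unadjusted p under 0.05, all lower; DESeq2 called 1 lower), with a median log2 fold change of -0.15. Gnb5, a G protein β subunit of the complex that speeds GIRK closure, had 45.1 ± 2.20 and 32.9 ± 5.28 CPM (SD, n = 3; edgeR adjusted p = 0.145). Calm3, one of the genes for calmodulin, the calcium sensor of SK and Kv7 channels, had 1939 ± 220 and 1357 ± 134 CPM (SD, n = 3; edgeR adjusted p = 0.164). Cntn2, an axonal adhesion protein that clusters Kv1 channels, had 67.3, 66.2 and 62.8 CPM and then 33.7, 35.0 and 59.4 CPM (edgeR adjusted p = 0.186), with library 6 near the DMSO libraries. These 3 were named after their values were seen. Without library 6 the test called 11 of the 25 lower and 0 higher, against 17.1% of all tested genes lower and 16.5% higher. The median of the partners was then -0.42, and -0.35 with the GC trend removed, where the medians of all tested genes were -0.01 and -0.07.

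For forskolin against DMSO, the authors' deposited table lists 132 genes. It holds 0 of the 79 potassium channel genes and 0 of the partners. The lowest log2 fold change in the authors' deposited table is 1.501, so it lists only raised genes. A gene lower with forskolin could not be in it, and its absence there says nothing about such a gene.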

How the data were processed

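Per the labels' protocols, RNA from cultured hippocampal neurons was extracted with Trizol and chloroform. The authors deposited raw counts, whole numbers per gene symbol; the submitters' processing notes name Salmon, DESeq and GRCm38 without saying which step used them, so the counts may be rounded estimates. Annotation and strand setting are not given in the sources used here. The authors' deposited results table holds normalised means (signal), log2 fold changes with errors, test statistics (score) and p-values; only its gene names and log2 fold changes were used.

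Counts were analysed in R 4.3.3 with edgeR 4.0.16 (filterByExpr with minimum count 10 and minimum total 15, TMM, glmQLFit, glmQLFTest; Benjamini-Hochberg over 16233 genes, threshold 0.05) and, as alternatives, DESeq2 1.42.0 and limma 3.58.1. The edgeR step was run on simulated counts with known folds in genes with high counts. The simulation had a lower dispersion than the data, no GC trend and no library apart from the others. It therefore cannot show how the calls hold under those features. SE is the absolute log2 fold change over the square root of F. Medians of log2 CPM used a prior count of 2. GC content, length and coordinates came from the longest transcript or gene of GENCODE M21 (GRCm38), matched by symbol for all 79 members and 97.1% of tested genes; the GC trend was a loess fit (span 0.5) per library. Total counts of 28342764 to 47548379 make counting error small for most members and large for those with few counts.

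Members and lists were chosen with earlier results of these data known. Named genes were those past the threshold, the highest per length in each subfamily by the mean of all 6 libraries, the 6 largest and 6 most negative changes with a mean count of at least 20, and 14 chosen by name; others are marked. A planned look at pore sequences in the proteins was not analysed here. The values of some members are not reported here.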

Additional observations from a re-analysis of the deposited data

How the results depend on the processing

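No paired analysis was possible because the labels number the libraries 1 to 6 across both groups and share no number. The number of potassium channel genes called was 5, and also 5 with limma-voom, a robust prior, library size alone and a minimum mean CPM of 1. It was 10 with DESeq2, 3 with RLE factors, 3 without a count filter, 37 with quality weights, 0 with the GC trend removed and 47 with that and library 6 left out; leaving out 1 library gave 0 to 34. For partner genes, 0 in the main test, it was 1 with DESeq2, 10 with quality weights and 18 with the GC trend removed and library 6 left out, against 10.9, 41.9 and 41.7% of all tested genes, and 0 to 11 with 1 library left out. The median log2 fold change of -0.26 was -0.62 with the GC trend removed and library 6 left out, where the median of all tested genes was -0.18. With 1 library left out it was -0.46 to -0.14, beside 0.01 to 0.06 over all tested genes. Library size alone moved the median of all tested genes from 0.02 to -0.09. The cause of these differences was not tested.

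The following log2 fold changes, none of them called in the main test, turned sign. With library size alone they were -0.079 for Kcna2, -0.10 for Kcnd3, -0.069 for Kcnk1, -0.018 for Kcnk13 and -0.076 for Kcnv1. With the GC trend removed they were -0.15 for Kcna2, -0.080 for Kcnd3, -0.18 for Kcnmb2, -0.26 for Kcnt2 and -0.38 for Kcnv1. With library 6 also left out they were -0.44 for Kcna2, -0.20 for Kcnd3, -0.21 for Kcnh7, -0.091 for Kcnj2, -1.11 for Kcnmb2, -0.87 for Kcnt2 and -0.65 for Kcnv1, and Kcna2, Kcnmb2, Kcnt2 and Kcnv1 were then called lower (edgeR adjusted p = 0.0495, 0.0124, 0.0112 and 0.00605). In that setting the median of all tested genes was itself -0.18. Quality weights gave -0.056 for Kcna2 and -0.44 for Kcnmb2, limma-voom -0.068 for Kcnn4, DESeq2 0.0036 for Kcnq3 and RLE factors 0.0034 for Kcnq3. Leaving out 1 library gave -0.17 to 0.20 for Kcna2, -0.13 to 0.14 for Kcnd2, -0.041 to 0.074 for Kcnd3, -0.13 to 2.97 for Kcne4, -0.22 to 0.17 for Kcnj3, -0.042 to 0.13 for Kcnk1, -0.11 to 0.24 for Kcnk13, -0.21 to 1.61 for Kcnk5, -0.35 to 0.035 for Kcnma1, -0.46 to 0.50 for Kcnmb2, -0.29 to 0.17 for Kcnq3, -0.33 to 0.19 for Kcns3, -0.50 to 0.037 for Kcnu1 and -0.070 to 0.18 for Kcnv1.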
